A study of Mus musculus with 4 samples.

Results

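The citric acid cycle enzymes examined here were 9 genes, Cs, Idh2, Idh3b, Ogdh, Sucla2, Suclg1, Fh1, Mdh1 and Mdh2, out of 20340 gene labels with a value in all 4 samples. They were taken by gene symbol, each was found at 1 locus, and all 9 were tested. The measurements came from mRNA-seq of tibialis anterior (TA) muscle, a fast muscle of the shin, of healthy wild-type C57BL/6 mice. Old muscle was from mice of 20 months (Old 1 and Old 2), and young muscle from mice of 3 months (Young 1 and Young 2). The sex of the mice was chosen at random according to the methods, and the labels do not say whether the 2 samples of an age came from separate animals. The paper states that its statistics rest on 2 independent mRNA-seq experiments per sample, and does not say there whether these used separate mice. Its methods on animals speak of independent mice in each group, without naming the mRNA-seq. The question was which genes are higher or lower in muscle showing age-related atrophy.

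The citric acid cycle runs in the mitochondrial matrix and oxidizes acetyl groups from pyruvate, fatty acids and amino acids to carbon dioxide. The electrons it releases reach the respiratory chain through NADH and through the oxidation of succinate, and one step makes ATP or GTP directly. Oxidative muscle fibers hold more mitochondria than glycolytic fibers, and citrate synthase activity is a common measure of mitochondrial content in muscle. Idh2 stands beside the main path. It makes NADPH, which serves the antioxidant systems of the matrix, while the NAD-dependent isocitrate dehydrogenase, of which Idh3b is a subunit, makes the NADH of the cycle.

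In old muscle, 8 of the 9 enzymes had lower values than in young muscle and Idh2 had higher values. Idh2 rose by a log2 fold change of 0.73, or 1.66-fold, and Mdh2 fell by 0.46 on the log2 scale, to 0.726 of its young level. The adjusted p from limma was 0.0353 for Idh2 and 0.0488 for Mdh2, against a threshold of 0.05. The call of Mdh2 was lost when any 1 sample was left out. The other 7 were lower by 0.17 to 0.56 on the log2 scale and did not pass the test (adjusted p 0.0589 to 0.286). Over all tested genes, 7.94% were called lower and 5.61% higher. Idh2 held 4.38% and 4.89% of the summed FPKM of the 9 enzymes in the old samples, against 2.41% and 2.03% in the young samples.

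Values are FPKM (fragments per kilobase of transcript, normalized to the mapped fragments of the library), which Cufflinks gave for each sample. Samples of 1 age differed by a factor, so each sample was multiplied by a scaling factor from the median ratio of its genes to the geometric mean of the 4 samples. The factors were 0.684 for Old 1, 1.47 for Old 2, 1.45 for Young 1 and 0.680 for Young 2. Fold changes are differences of log2(scaled FPKM + 1), tested with limma over 10266 genes that reached 1 FPKM in 2 samples, and adjusted p under 0.05 was the threshold. Over those genes the median log2 fold change was -0.01. The read depth is unknown, since FPKM values hold no counts, and no counting error is given.

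After scaling, the 2 samples of an age were close for most genes. Over 369 genes with a mean log2 level of 6 to 7, the robust SD of the log2 difference was 0.06 within the old and 0.05 within the young samples, whereas Old 1 and Young 2 gave 0.41 and Old 2 and Young 1 gave 0.39. At levels of 7 to 9, where most of the 9 enzymes lay, the values over 308 genes were 0.10 and 0.10 within an age, against 0.47 and 0.44. These SDs are taken around the median difference and leave out a shift between the samples. At levels of 6 to 7 the median was -0.12 for Old 1 minus Old 2 and -0.13 for Young 2 minus Young 1. At 7 to 9 it was -0.08 and -0.09. Some abundant genes were far apart within an age: Gapdh was higher in Old 1 than in Old 2 by 0.89 and in Young 2 than in Young 1 by 1.00 on the log2 scale, and Tnnc2 by 2.25 and 1.18. If the samples of an age are 1 library processed differently, each age has 1 sample and the tests below have no replicate check. All p-values measure only the spread between these samples, which may be technical. The smallest two-sided p of an exact permutation test with these group sizes is 0.333.

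The promoters of the only enzyme that rose, Idh2, and of Mdh2, the enzyme that fell, are shown with that of Mdh1, the cytosolic partner of Mdh2. All 9 enzymes had a promoter sequence from RefSeq (GRCm38.p6, the assembly of the mm10 loci). Each window ends at the start site given with the RefSeq promoter sequence, and the part inside the locus used by the authors was left out for Mdh2. The RefSeq gene of Idh2 also reaches further upstream, to 80118608, so that its window lies within that gene's span. The sequences lie at chr7:80115351-80115600 on the minus strand for Idh2, chr5:135778399-135778489 on the plus strand for Mdh2 and chr11:21571935-21572184 on the minus strand for Mdh1. They are written 5′ to 3′, with the CCAAT box, CCAAT or its reverse complement ATTGG, in capitals.
Idh2: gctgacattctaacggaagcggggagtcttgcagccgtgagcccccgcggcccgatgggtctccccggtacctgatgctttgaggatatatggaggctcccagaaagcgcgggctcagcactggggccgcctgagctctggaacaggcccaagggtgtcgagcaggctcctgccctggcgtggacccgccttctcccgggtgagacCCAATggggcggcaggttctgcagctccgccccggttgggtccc
Mdh2: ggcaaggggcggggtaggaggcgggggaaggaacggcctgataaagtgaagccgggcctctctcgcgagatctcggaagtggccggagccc
Mdh1: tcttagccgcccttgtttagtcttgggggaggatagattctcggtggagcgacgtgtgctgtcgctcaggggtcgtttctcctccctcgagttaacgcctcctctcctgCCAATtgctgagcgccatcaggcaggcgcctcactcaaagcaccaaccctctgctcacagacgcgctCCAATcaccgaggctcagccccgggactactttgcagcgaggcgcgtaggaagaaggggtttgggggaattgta

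Motifs were searched on both strands in the 250 bases before that start site. CCAAT was found in 6 of the 9 enzymes (Cs, Idh2, Idh3b, Ogdh, Fh1 and Mdh1), both in the enzyme that rose and in enzymes with lower values, and in 34.5% of 27025 promoters of the same length, taken as 1 per gene. In Idh2 it lay 44 to 40 bases before the start site used here. None of the 9 windows held AAGGTCA, a motif of the estrogen-related receptors, GCATGCGC, a part of the nuclear respiratory factor 1 motif, or CCGGAAG, a core of the ETS family. These letters were in 4.05%, 2.32% and 7.05% of all promoters. The GC content of the 9 windows ran from 46.8% to 67.2%, against a median of 52% over all promoters. Only the window of Idh3b lay below that median.

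The 9 mRNAs were abundant in every sample. Their FPKM lay between percentile 96.1 and percentile 99.7 of the 20340 gene labels. Together they held 0.512% and 0.715% of the FPKM summed over these labels in Old 1 and Old 2, and 0.804% and 0.622% in Young 1 and Young 2. That sum is incomplete, since the values used here ended on chromosome 7 or 8 in text order. Some abundant genes, such as Neb, were listed at 0 in Old 2 and Young 1 only. After scaling, their sum was 2446 in Old 1 and 2387 in Old 2, below 2934 in Young 1 and 3129 in Young 2.

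**Figure D1:**
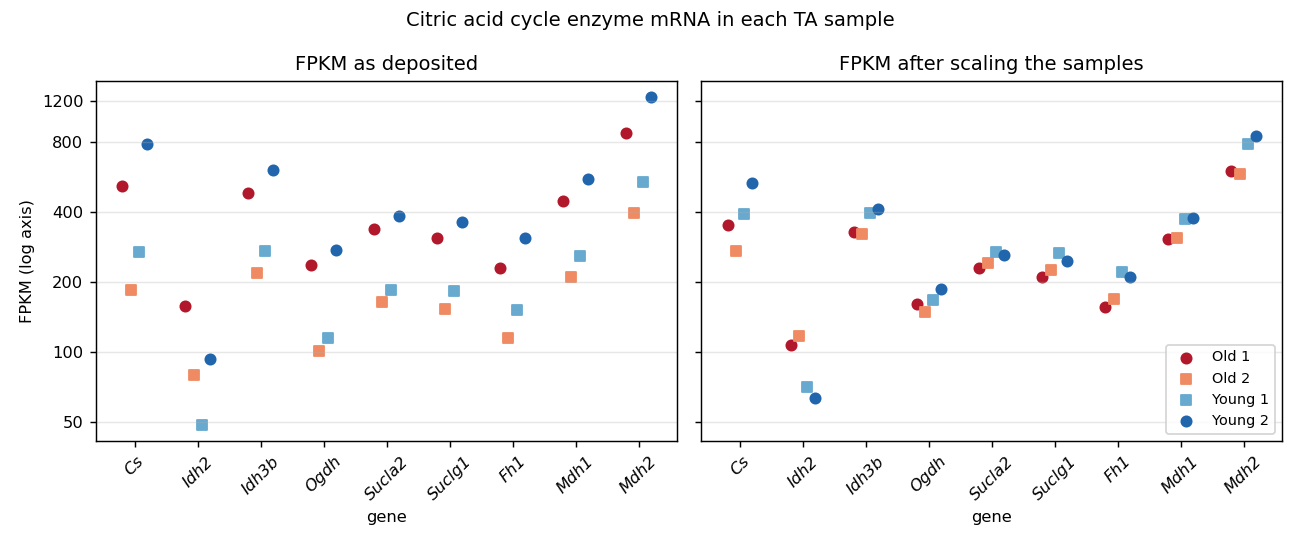
FPKM of the 9 enzymes in each sample on a log axis, as deposited on the left and after scaling on the right, with Old 1 and Young 2 as circles and Old 2 and Young 1 as squares. As deposited, circles stand above squares of the same age for every gene, and after scaling both old samples lie below both young samples for all genes but Idh2, where both lie above.

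The order of the levels was similar at both ages. Mdh2 was the highest at a mean of 590 scaled FPKM in old and 813 in young muscle, and Idh2 the lowest at 112 and 67.1. In old muscle Idh3b, Cs and Mdh1 followed Mdh2 at 325, 312 and 306, and the ranges of Idh3b and Cs and of Cs and Mdh1 overlapped. In young muscle Cs, Idh3b and Mdh1 followed at 461, 404 and 375, with overlap between Cs and Idh3b. Sucla2 (235 and 265) and Suclg1 (218 and 256) came next, and their ranges overlapped in young muscle. Fh1 (162 and 214) and Ogdh (155 and 177) came before Idh2, with overlap in old muscle.

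Of the 9 enzymes, 1 passed the threshold as lower in old muscle and 1 as higher, against 7.94% of the tested genes lower and 5.61% higher. In scaled values both old samples were under both young samples for 8 enzymes and above them for 1, against 28.4% and 27.8% of the tested genes. The median log2 fold change of the 9 was -0.29. With values as deposited, limma called 0 of the 9 (0 also at an unadjusted p under 0.05), since the standard errors (SE) were 0.97 to 1.19, and the background was 0.302%, made up of 18 genes higher and 13 lower against 576 and 815 with scaling. No enzyme overlapped between the ages in scaled values. Comparing only Old 1 with Young 2 or only Old 2 with Young 1 therefore gave the same directions and adds no support.

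Cs encodes citrate synthase, which joins acetyl-CoA and oxaloacetate in the first step of the cycle. Its FPKM was 515 and 185 in Old 1 and Old 2, and 269 and 780 in Young 1 and Young 2. The scaled values were 352 and 272 in old and 391 and 531 in young muscle, so the groups did not overlap, but the samples of an age were far apart. The log2 fold change was -0.56 with a standard error (SE) of 0.23, the largest of the 9, and did not pass (adjusted p = 0.21 from limma). It ranged from -0.34 without Young 2 to -0.79 without Young 1, and was -0.36 without Old 2. Cs was higher in Old 1 than in Old 2 by 0.37 on the log2 scale and higher in Young 2 than in Young 1 by 0.44. For the other 8 enzymes the differences in the same pairs were at most 0.12 and 0.15 in size. The locus of Cs on chromosome 10 runs from 128337611 to 128370037 (mm10, counted from 1), beyond the end of Cs in RefSeq at 128362482, and overlaps Coq10a, which has a locus of its own.

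The cycle has 2 kinds of mitochondrial isocitrate dehydrogenase. Idh2, which makes NADPH, was higher in old muscle. Idh3b, the only subunit of the NAD-dependent kind examined here, had lower values but did not pass. Idh2 had an FPKM of 157 and 79.3 in Old 1 and Old 2, and 48.6 and 93.5 in Young 1 and Young 2, and after scaling 107 and 117 in old against 70.6 and 63.6 in young muscle. In scaled values the old samples lay above the young ones without overlap. The log2 fold change was 0.73 (SE 0.09, adjusted p = 0.0353 from limma), and 315 tested genes (3.07%) had one at least as high. The call rested on the spread of these samples: it was lost without Old 2 and without Young 1, and held without Old 1 and without Young 2. The log2 fold change was 0.69, 0.80, 0.79 and 0.65 in these fits, in that order. Without Old 2 or Young 1 nearly all calls over the tested genes were lost. Losses in those fits, here and below, are therefore not particular to a gene. Its locus is on chromosome 7 from 80094847 to 80115350.

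Idh3b, the beta subunit of the NAD-dependent enzyme, had an FPKM of 480 and 219 in Old 1 and Old 2, and 272 and 606 in Young 1 and Young 2. After scaling, 328 and 322 in old stood against 396 and 412 in young muscle. The log2 fold change of -0.31 had an SE of 0.07 and an adjusted p of 0.0689 from limma, short of the threshold. Within a sample, where a factor common to all genes cancels, the ratio of Idh3b to Idh2 was 3.06 in Old 1 and 2.76 in Old 2, against 5.60 in Young 1 and 6.48 in Young 2. The locus of Idh3b on chromosome 2 (130274412 to 130285529) spans Nop56 and snoRNA genes, of which Nop56, Snord110 and Snord57 have loci of their own. Idh3a and Idh3g, the other subunits, were not analysed here.

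The cytosolic counterpart of Idh2 moved the other way. Idh1 had an FPKM of 13.1 and 6.35 in Old 1 and Old 2, and 11.2 and 21.8 in Young 1 and Young 2, and fell by 0.71 on the log2 scale (SE 0.07, adjusted p = 0.0289 from limma). The ratio of Idh2 to Idh1 was 12.0 and 12.5 in the old samples and 4.34 and 4.30 in the young samples, a mean 2.84-fold higher in old muscle. The exact permutation p of this ratio and of the ratio of Idh3b to Idh2 was 0.333, the smallest that the samples allow. The call of Idh1 was lost without Old 2 and without Young 1 (adjusted p = 0.240 and 0.155 from limma).

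**Figure D2:**
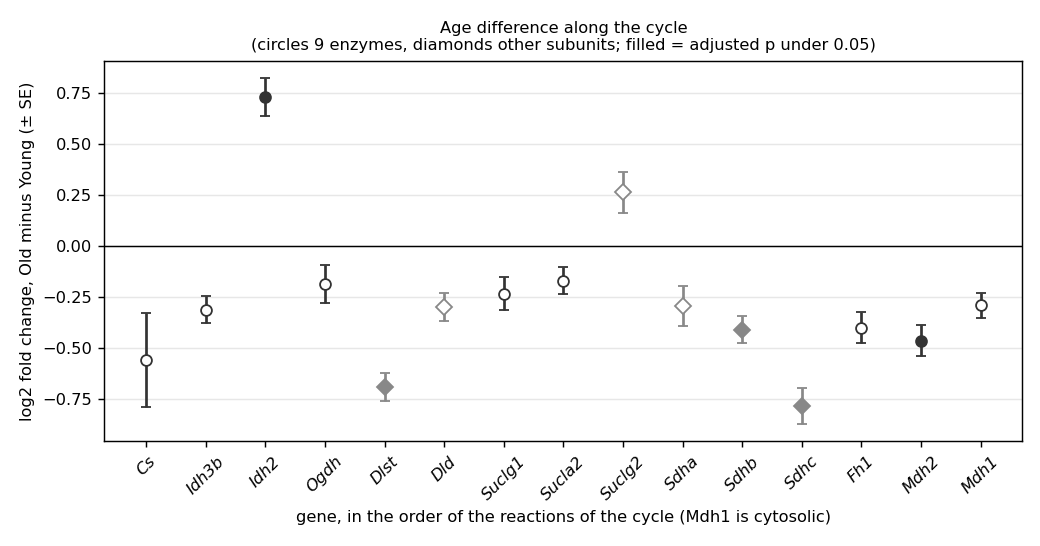
Log2 fold change (Old minus Young) with its standard error for the 9 enzymes (circles) and 6 other genes of the cycle (diamonds), in the order of the reactions, filled where adjusted p was under 0.05. Idh2 stands at 0.73 and Suclg2 at 0.26 (not past the threshold), and the other 13 lie between -0.78 and -0.17.

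Ogdh encodes the first subunit of the 2-oxoglutarate dehydrogenase complex, which turns 2-oxoglutarate into succinyl-CoA. Its FPKM was 236 and 101 in Old 1 and Old 2, and 115 and 273 in Young 1 and Young 2, or 161 and 149 against 167 and 186 after scaling. The gap between the ages was narrower than the gap within either age. The log2 fold change was -0.19 (SE 0.09, adjusted p = 0.286 from limma), and it was -0.11 with quantile normalization, without Old 2 and without Young 2. Dlst, the second subunit of the complex, fell by 0.69 (SE 0.07, adjusted p = 0.0278 from limma), a call that was lost without Old 2 (0.247) and without Young 1 (0.168). Dld, the third subunit, which the pyruvate complex also uses, had -0.30 (SE 0.07, adjusted p = 0.0778 from limma).

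Succinyl-CoA ligase pairs Suclg1, its alpha subunit, with one of a pair of beta subunits, Sucla2 for the enzyme that makes ATP and Suclg2 for the one that makes GTP. Suclg1 had an FPKM of 308 and 153 in Old 1 and Old 2, and 182 and 363 in Young 1 and Young 2, and Sucla2 336, 164, 185 and 384 in the same order. After scaling, Suclg1 was at 210 and 225 in old and 265 and 247 in young muscle, and Sucla2 at 229.9 and 241 against 269 and 261. The groups did not overlap, but neither gene passed: the log2 fold changes were -0.23 (SE 0.08, adjusted p = 0.156 from limma) and -0.17 (SE 0.07, adjusted p = 0.195 from limma). With cyclic loess the value of Sucla2 was -0.11.

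Suclg2 had 54.6 and 28.6 FPKM in Old 1 and Old 2, and 23.9 and 45.8 in Young 1 and Young 2, with a log2 fold change of 0.26 (SE 0.10, adjusted p = 0.187 from limma). The ratio of Sucla2 to Suclg2 within a sample was 6.16 in Old 1 and 5.73 in Old 2, against 7.74 in Young 1 and 8.39 in Young 2. Both old samples were below both young samples, with a mean ratio of 5.94 against 8.06 (exact permutation test, two-sided p = 0.333). The beta subunit of the ATP form was the more abundant mRNA in all 4 samples.

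**Figure D3:**
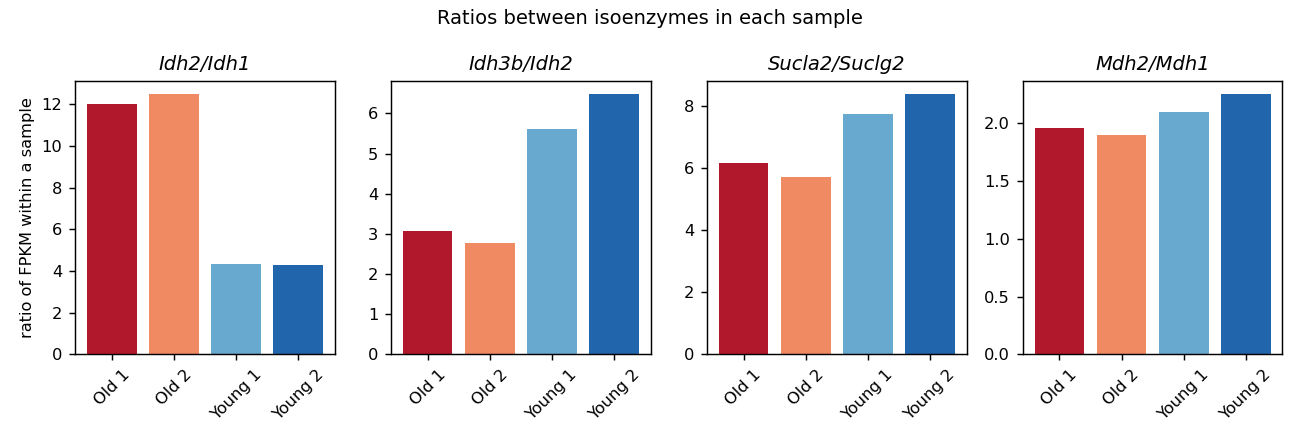
Ratio of FPKM within each sample for 4 pairs of genes, 1 bar per sample, each panel with its own axis from 0. Idh2/Idh1 is 12.0 and 12.5 in old and 4.34 and 4.30 in young samples, and the other ratios are lower in both old samples.

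Fh1 encodes fumarase, which adds water to fumarate to give malate. Its FPKM was 229 and 114 in Old 1 and Old 2, and 151 and 307 in Young 1 and Young 2. The scaled values of 157 and 168 in old muscle lay under 220 and 209 in young muscle, without overlap. The log2 fold change of -0.40 (SE 0.08) had an adjusted p of 0.0589 from limma. It passed with cyclic loess (0.0187) and with a minimum of 1 FPKM in every sample (0.0338).

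Malate dehydrogenase closes the cycle in the matrix (Mdh2) and runs the malate-aspartate shuttle, which carries cytosolic NADH electrons into mitochondria, with Mdh1 in the cytosol. Mdh2 had an FPKM of 872 and 397 in Old 1 and Old 2, and 539 and 1241 in Young 1 and Young 2, and 596 and 584 against 782 and 844 after scaling. Both old samples were below both young samples. It fell by 0.46 (SE 0.08, adjusted p = 0.0488 from limma), just past the threshold. The call was lost without each of the samples in turn, with adjusted p from limma of 0.131 without Old 1, 0.37 without Old 2, 0.237 without Young 1 and 0.153 without Young 2, and with quantile normalization the log2 fold change was -0.17. The locus of Mdh2 is on chromosome 5 from 135778490 to 135791643.

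Mdh1 had an FPKM of 445 and 210 in Old 1 and Old 2, and 258 and 552 in Young 1 and Young 2. After scaling, 304 and 309 stood against 374 and 375, the closest agreement of replicates among the 9. The log2 fold change was -0.29 (SE 0.06, adjusted p = 0.0683 from limma). The ratio of Mdh2 to Mdh1 was 1.96 and 1.89 in old and 2.09 and 2.25 in young samples, a mean 0.887 times the young ratio (exact permutation test, two-sided p = 0.333).

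As a share of the summed FPKM of the 9 enzymes, Mdh2 held 24.4% and 24.5% in the old and 26.7% and 27.0% in the young samples. Ogdh (6.60% and 6.23% against 5.70% and 5.94%) and Sucla2 (9.40% and 10.1% against 9.15% and 8.35%) held slightly larger shares in both old samples. The shares of Cs, Idh3b, Suclg1, Fh1 and Mdh1 overlapped between the ages. The 5 genes outside the lists whose 4 centred log2 values lay closest to the mean profile of the 9 enzymes, by Euclidean distance over 4 samples, were Braf, Slc12a7, Zfp574, the joint locus of Zbtb26 and Zbtb6, and 2310039H08Rik, with distances of 0.0061 to 0.0203. That profile averages enzymes of both directions.

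The other genes of the cycle were given by a fixed list of 11, of which 8 had a value and were tested: 3 fell, none rose, and their median log2 fold change was -0.35. The shares called over all tested genes were 7.94% lower and 5.61% higher. Besides Dlst, the calls were Sdhc (-0.78, SE 0.09, adjusted p = 0.0311 from limma) and Sdhb (-0.41, SE 0.06, adjusted p = 0.0459 from limma), both subunits of succinate dehydrogenase, which is also complex II of the respiratory chain. Sdha, its flavoprotein subunit, had -0.29 and did not pass. Sdhd, another subunit, was not analysed here. Ogdhl, a relative of Ogdh, was near 1 FPKM in Old 1 and Young 2 and had a log2 fold change of 0.04. The call of Sdhc was lost without Old 2 (adjusted p = 0.244 from limma) and without Young 1 (0.173), and that of Sdhb without each sample in turn (0.140 to 0.358).

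Pyruvate enters the cycle through the mitochondrial pyruvate carrier and the pyruvate dehydrogenase complex. Of 14 genes on this list, 9 were tested, 2 fell and none rose (median log2 fold change -0.36). The shares called over all tested genes were 7.94% lower and 5.61% higher. Pdhb, a subunit of the complex, fell by 0.55 (SE 0.06, adjusted p = 0.0323 from limma) and Pdk2, a kinase that switches the complex off, by 0.43 (SE 0.07, adjusted p = 0.0467 from limma). Both calls were lost without each of the 4 samples in turn. Pdk4, the kinase induced by fasting, had 303 and 141 FPKM in Old 1 and Old 2, and 75.3 and 219 in Young 1 and Young 2, with a log2 fold change of 0.70 that did not pass (SE 0.18, adjusted p = 0.0913 from limma). It passed without Young 2 (0.91, adjusted p = 0.0175 from limma) and with a minimum of 1 FPKM in every sample (adjusted p = 0.0426 from limma). Mpc1 (-0.31), Pdhx (-0.36), Pcx (-0.36), Pdk1 (-0.20), Mpc2 (-0.61) and Pdp1 (0.02) did not pass either, and Mpc2 turned to 0.03 without Old 2 and passed without Old 1 (-1.24, adjusted p = 0.0239 from limma).

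Of 16 genes for cytosolic isoenzymes and the exchange of intermediates, 12 were tested, 5 fell and none rose (median log2 fold change -0.41). The shares called over all tested genes were 7.94% lower and 5.61% higher. The calls were Got1, the cytosolic aspartate aminotransferase of the malate-aspartate shuttle (-0.91, SE 0.06, adjusted p = 0.0227 from limma), the shuttle carriers Slc25a11 (-0.57, adjusted p = 0.0346) and Slc25a12 (-0.46, adjusted p = 0.0401), Idh1, and Acly, which splits citrate in the cytosol (-0.60, adjusted p = 0.0264). All 5 were lost without Old 2 and without Young 1, and Slc25a11 and Slc25a12 also without Old 1 and without Young 2. Aco1 (-0.35), the joint locus of Glud1 and Gm3219 (-0.22), Me2 (-0.58), Me3 (-0.01), Pck2 (-0.06), Slc25a1 (-0.35) and Slc25a10 (-0.29) did not pass, and Pck1 and Slc25a13 were under 1 FPKM in all samples.

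**Figure D4:**
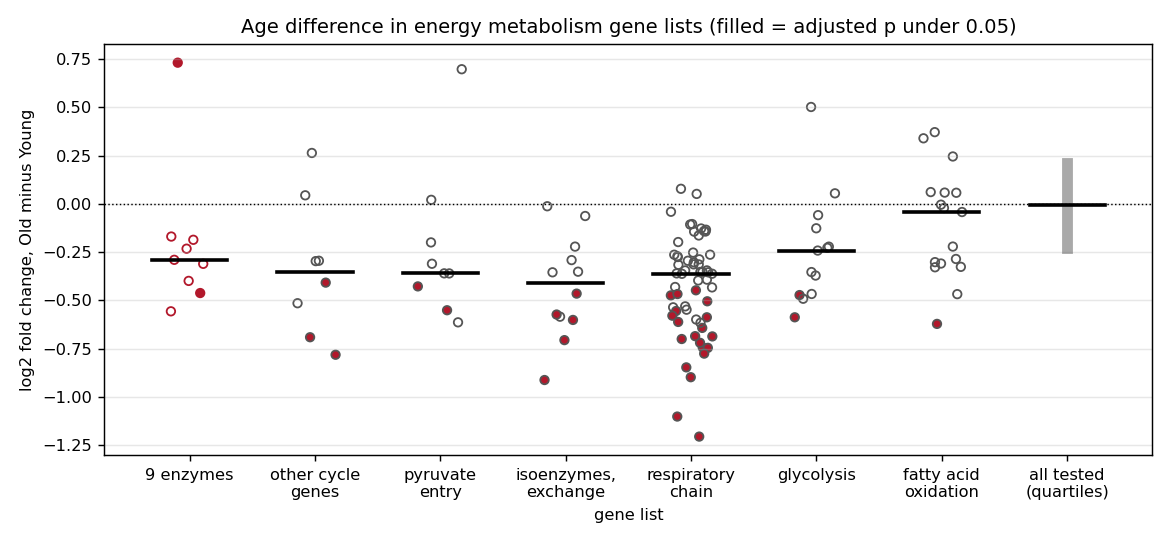
Log2 fold change (Old minus Young) of each tested gene, 1 point per gene, in the 9 enzymes and 6 lists, filled where adjusted p was under 0.05, with the median as a bar. The last column shows the quartiles and median of all tested genes. The medians of the first 5 columns lie between -0.41 and -0.29, and that of all genes at -0.01.

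Neighbouring pathways were counted in the same way. Of 60 respiratory chain genes tested, 20 fell and none rose, with a median log2 fold change of -0.36, from -1.20 for Atp5g1 to 0.08 for Ndufb9. The count of 20 became 0 without Old 2 and without Young 1, 7 without Old 1 and 14 without Young 2. It was also 0 with values as deposited, quantile normalization, median scaling, no filter and the replicate block, and 3 with no trend. Ndufs7 and Atp5d, of this list, were listed at 0 in Old 2 and Young 1 and at 859 to 1936 FPKM in Old 1 and Young 2. Of 13 glycolysis genes, 2 (Hk2 and Pgam1) fell and none rose (median -0.24, from -0.59 for Pgam1 to 0.50 for Ldhb). Of 17 genes of fatty acid oxidation, 1 (Cd36) fell and none rose (median -0.04, from -0.62 for Cd36 to 0.37 for Fabp3). The calls of both lists were lost without Old 2 and without Young 1, and without Old 1 the glycolysis count was 1 and that of fatty acid oxidation 0. Hk2, Gapdh, Tnnc2, Ndufs7, Atp5d and the markers with values were picked for mention after their values were seen. All tested genes had 815 lower, 576 higher and a median of -0.01. The differences between the lists were not tested.

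Markers of fiber and cell types also differed between the ages. All 6 slow fiber markers tested, out of 7 on the list, rose by 2.51 to 4.41 on the log2 scale. Their summed scaled FPKM was 877 in Old 1 and 679 in Old 2 against 52.2 in Young 1 and 60.5 in Young 2, and none was listed at 0. The joint locus of the hemoglobin genes Hba-a1 and Hba-a2, the only erythrocyte marker with a value, rose by 2.79, from 57.3 and 60.3 to 415 and 408 scaled FPKM. These calls were lost without Old 2 and without Young 1, where limma called 0 of all tested genes higher. Of 6 fibroblast markers Col1a1, Col1a2 and Col3a1 fell, while Dcn (0.30) and Pdgfra (0.16) did not pass and were higher in both old samples (sums of 123 and 136 in old, 192 and 178 in young), of 6 macrophage markers tested Mrc1 fell (11.4 and 7.65, 13.2 and 18.2), of 6 endothelial markers Tie1 fell (50.6 and 54.8, 66.3 and 60.0), and of 5 adipocyte markers none passed (306 and 246, 266 and 341). Of 6 fast fiber markers tested, 2 passed, each with 1 age listed at 0. Myh1 had 1318 and 156 FPKM in Old 1 and Old 2 and was listed at 0 in the young samples, and Tnnt3 had 4465 and 7509 FPKM in Young 1 and Young 2 and was listed at 0 in the old samples. Myh4 was listed at 0 throughout. Of 8 skeletal muscle markers tested none passed, with sums of 12248 to 28377 in old and 14156 to 28810 in young samples. Ckm was listed at 0 in all 4 samples, Ttn in both old samples, and Neb in Old 2 and Young 1 against 2361 FPKM in Old 1 and 1775 in Young 2. A listed 0 for such muscle genes can be a missing estimate, so no change is read from these genes. In bulk muscle, a different share of a fiber or cell type and a different amount of mRNA per cell cannot be told apart, and the part of these markers in the values of the 9 enzymes was not tested.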

How the data were processed

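mRNA-seq of TA muscle was examined in 2 old and 2 young samples, grouped by the titles in the labels. The authors trimmed reads, removed PCR duplicates and aligned to mm10 with TopHat2 (2.0.10 in the submitters' processing notes), using RefSeq genes as a guide. Per locus and sample, the authors deposited FPKM from Cufflinks. In the copies used here each sample ended in 1 incomplete line, which was left out. Loci ended on chromosome 7 or 8 in text order. Only the 20605 loci shared by the 4 samples were kept and rows of 1 symbol summed to 20340 labels. The depth is unknown, and FPKM totals were 226747 to 739302.

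Genes that reached 1 FPKM in 2 or more samples were compared on log2(scaled FPKM + 1) with limma 3.58.1 (trend, two-sided, Benjamini-Hochberg) in R 4.3.3, all 4 samples in the fit. Cuffdiff, which the authors used, needs aligned reads and was not run. Scripts were tested on simulated data. Across 10266 genes, deviations of same-numbered samples from their age's mean had a correlation of -0.903, so the numbers do not pair the samples. Matched crosswise, Old 1 with Young 2 and Old 2 with Young 1, the same deviations gave 0.903. This is the same value with its sign turned. Shared loci at 0 numbered 5223 in Old 1 and 5335 in Young 2. They numbered 9558 in Old 2 and 9452 in Young 1. The main fit had no term for this crosswise likeness, which stayed in the spread behind its p-values. Its cause was not tested. Exact permutation tests used scipy 1.17.1. Figures used matplotlib 3.10.9. The members, lists and tests were chosen with earlier results of these data known, and all members and the tested genes of the 3 pathway lists are named, except 1 that is counted but not reported here, with the extremes of the other lists and the 5 genes most like the members. Loci start at 0 in the values as deposited and are given counted from 1. Alternatives covered scaling, pseudocount, filters, locus choice, trend, the replicate block and leaving out each sample.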

Additional observations from a re-analysis of the deposited data

How the results depend on the processing

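The 8 lower enzymes and Idh2 kept their directions under all alternatives run. Changes of filter, trend or block left the fold change of each enzyme as it was. No enzyme overlapped between the ages in scaled values, so leaving out a sample could hardly turn a direction. The kept directions in those settings therefore add no support. Calls depended on the scaling and on single samples. Against 576 genes higher and 815 lower, the counts were 18 and 13 with values as deposited, 119 and 188 with quantile normalization, 1135 and 1395 with cyclic loess, 12 and 13 with median scaling over the tested genes, 1222 and 1302 with a minimum of 1 FPKM in every sample, 114 and 202 with no filter, 103 and 181 with no trend, and 24 and 21 with the replicate block, which pairs same-numbered samples (correlation of deviations -0.903). Among alternatives chosen after seeing the data, leaving out genes at 0 gave 936 higher. A block that crosses the numbers gave 3242 higher and 3503 lower. It called 8 of the 9 enzymes lower and Idh2 higher, and 6 of the other cycle genes lower and 1 higher. The crossed pairing was picked from these same values (correlation of deviations 0.903). A smaller spread was thus built in, and its counts add no support. Leaving out 1 sample gave 0 to 619 genes higher and 1 to 773 lower.

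The 1 enzyme called higher became 0 with values as deposited, median scaling, no filter, no trend, the replicate block, and without Old 2 or Young 1 (0 to 1 when a sample was left out). The 1 called lower became 0 in those settings, with quantile normalization, with a pseudocount of 0.1 and without any 1 of the samples (0 in each case), and 2 with cyclic loess, a minimum of 1 FPKM in every sample, and genes at 0 left out. Of the other cycle genes, 3 lower became 0 with values as deposited, quantile normalization, median scaling, no trend and the replicate block, 1 with no filter, and 0 to 2 without a sample, and cyclic loess gave 1 higher. The median log2 fold change of the 9 enzymes was -0.25 with quantile normalization and -0.21 with cyclic loess. Leaving out samples turned the sign of uncalled genes only, with ranges of -0.13 to 0.19 for Ogdhl, -0.21 to 0.25 for Pdp1, -1.24 to 0.029 for Mpc2, -0.088 to 0.065 for Me3 and -0.40 to 0.18 for Pck2. The cause of these changes was not tested. Leaving out a sample leaves 1 in its age, assumed to vary like the other age. Without depth, low values such as those of Ogdhl have no counting error.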
